A study of Homo sapiens with 12 samples.

Results

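Ribonucleotide reductase is built from 3 proteins, and the genes for them, RRM1, RRM2 and RRM2B, were followed through RNA-seq of Ewing sarcoma cell lines in which RRM1 can be removed. The members were chosen by gene symbol. All 3 of them were among the 20771 genes of the count table and among the 16515 genes that passed the filter on low counts.

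The enzyme reduces ribonucleotides to deoxyribonucleotides, the building blocks of DNA. RRM1 is the large catalytic subunit. RRM2 and RRM2B are alternative small subunits that carry the radical needed for the reaction, RRM2 being made mainly for DNA replication in dividing cells and RRM2B being a p53 target that supplies deoxyribonucleotides for repair and for mitochondrial DNA in cells at rest.

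EW8 and TC71 are human Ewing sarcoma cell lines, a tumor of bone and soft tissue driven by a fusion of EWSR1 with an ETS family gene, most often FLI1. Each line was sequenced in 3 libraries labelled 0 h and 3 labelled 48 h, which makes 12 libraries of polyadenylated RNA. According to the study's methods, the endogenous RRM1 gene of both lines was targeted with Cas9 and a guide RNA, and a lentiviral, codon-optimized RRM1 transgene that the guide does not recognize was expressed under a doxycycline-inducible promoter. The knockout and the transgene were therefore carried by all 4 groups, EW8 0 h, EW8 48 h, TC71 0 h and TC71 48 h. The study's text describes the comparison as cells kept in doxycycline against cells 48 h after its removal, whereas the sample labels give the line and the time alone. No library of the unmodified parental lines was analysed here. The labels do not say that replicates were separate cultures, so p-values measure the spread between these libraries, which may be technical.

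The libraries held between 18468485 and 35698991 counts, and the common biological coefficient of variation was 4.17%. The labelled tumor type was checked against markers, which do not tell the lines apart. CD99, a surface protein used to diagnose Ewing sarcoma, had 4708 to 11244 counts per library, and the EWS-FLI1 targets NKX2-2, NR0B1 and STEAP1, together with FLI1, were also detected in each library. Of the markers of other cells, the leukocyte gene PTPRC had 0 to 5 counts, and the epithelial gene EPCAM had 2 to 43 counts.

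The promoters of the large subunit and of the replicative small subunit are shown because their genes responded to different extents in the same libraries. The 130 bases before the RefSeq start site (GRCh38.p14, plus strand) of RRM1 at chr11:4094555-4094684 and of RRM2 at chr2:10122609-10122738 are given from 5′ to 3′, with the CCAAT box, the letters that the factor NF-Y binds, in capitals.
RRM1: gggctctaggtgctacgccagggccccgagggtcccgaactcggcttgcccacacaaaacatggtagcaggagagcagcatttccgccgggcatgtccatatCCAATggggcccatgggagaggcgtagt
RRM2: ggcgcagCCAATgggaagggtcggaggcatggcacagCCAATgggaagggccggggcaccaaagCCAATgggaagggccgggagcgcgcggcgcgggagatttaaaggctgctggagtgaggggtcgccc
The RRM2 promoter held 3 CCAAT boxes, which begin 123, 93 and 66 bases before the start, and the RRM1 promoter held 1, which begins 28 bases before it. Of 35116 RefSeq promoters of the same length (250 bases before to 50 bases after the start, both strands searched), 34.6% held at least 1 CCAAT and 3.26% held 3 or more. Each of the 4 boxes was followed by GGG. This longer word, CCAATGGG, was searched for after the sequences had been seen, and 2.52% of the promoters held it. Neither promoter held the AP-1 word TGANTCA (7.71% of all promoters), the E2F word TTTNNCGC (6.89%) or the TATA word TATAAA (11.5%), which says only that these letters are not in this window. A second RefSeq promoter of RRM2, with its start at position 10122568, held 1 CCAAT, which begins 249 bases before that start.

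In genome build hg38 with GENCODE annotation, RRM1 (ENSG00000167325) lies on the plus strand of chromosome 11 from 4094707 to 4138932, and its canonical transcript has 19 exons. RRM2 (ENSG00000171848) lies on the plus strand of chromosome 2 from 10120698 to 10211725, with 10 exons in the canonical transcript. RRM2B (ENSG00000048392) lies on the minus strand of chromosome 8 from 102204502 to 102238961, with 9 exons. Although RRM2 and RRM2B encode closely related proteins, the longest run of bases that their canonical transcripts share is 18. The processed pseudogenes RRM2P2 and RRM2P3 share runs of up to 76 and 108 bases with RRM2. They held at most 7 and 29 counts in a library, and RRM2P3 never exceeded 0.146% of the RRM2 count. The antisense transcript RRM1-AS1 overlaps 63 exon bases of RRM1 and was not analysed here, and whether the counting used strand is not given in the sources used here.

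RRM1, the gene that the study targeted, was higher in the libraries labelled 48 h than in those labelled 0 h in both lines, 7.37-fold in EW8 and 1.57-fold in TC71. The knockout was present at both times and doxycycline controls the codon-optimized transgene, so that these counts do not check which libraries had lost RRM1 protein. Whether reads of the transgene entered the RRM1 count was not tested.

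In EW8, the RRM1 counts were 214, 166 and 317 in the 0 h libraries and 1201, 1449 and 1514 in the 48 h libraries. After scaling for library size and composition (CPM, the counts rescaled to a common library size with TMM factors), these were 9.37, 9.51 and 9.67 CPM at 0 h and 63.9, 72.6 and 74.1 CPM at 48 h. Every EW8 48 h library lay far above every EW8 0 h library, and the 0 h libraries had a mean of 9.52 ± 0.148 CPM (SD, n = 3). The log2 fold change was 2.88 ± 0.07 (SE), with an edgeR adjusted p of 3.37e-27. Only 326 of the 16515 genes, or 1.97%, had a larger log2 fold change in EW8, where 37.0% of all genes were called higher at an adjusted p below 0.05 and 13.9% were called higher with more than a 2-fold change (17.2% in either direction).

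In TC71, the RRM1 counts were 422, 316 and 418 in the 0 h libraries and 674, 707 and 778 in the 48 h libraries. These gave 15.7, 15.5 and 17.3 CPM against 25.7, 26.4 and 24.1 CPM. The groups did not overlap, as was the case for 49.6% of all genes in this line, and the difference was modest beside that in EW8. The log2 fold change was 0.65 ± 0.07 (SE, n = 3 per group; edgeR adjusted p = 2.91e-09), which 7.76% of genes exceeded. In TC71, 22.9% of genes were called higher, and 3.26% were called higher with more than a 2-fold change (4.12% in either direction), a limit that RRM1 did not reach.

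The RRM1 responses of the lines differed by 2.23 ± 0.10 on the log2 scale (edgeR interaction test, adjusted p = 3.06e-18), or 4.70-fold, where 25.7% of genes were called higher in EW8 than in TC71 and 48.1% were called in either direction. The order of the lines reversed between the times. At 0 h, RRM1 was 1.70-fold higher in TC71 than in EW8 (log2 difference 0.76 ± 0.08, edgeR adjusted p = 4.78e-10; 32.9% of genes were called higher in TC71), and at 48 h it was 2.77-fold lower (log2 difference -1.47 ± 0.06, edgeR adjusted p = 4.96e-21; 37.3% of genes were called lower). The levels rose in the order EW8 0 h, TC71 0 h, TC71 48 h and EW8 48 h, with no overlap between neighbors in that order. At 0 h, 68.3% of all genes had no overlap between the lines, and at 48 h 74.6% had none.

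**Figure D1:**
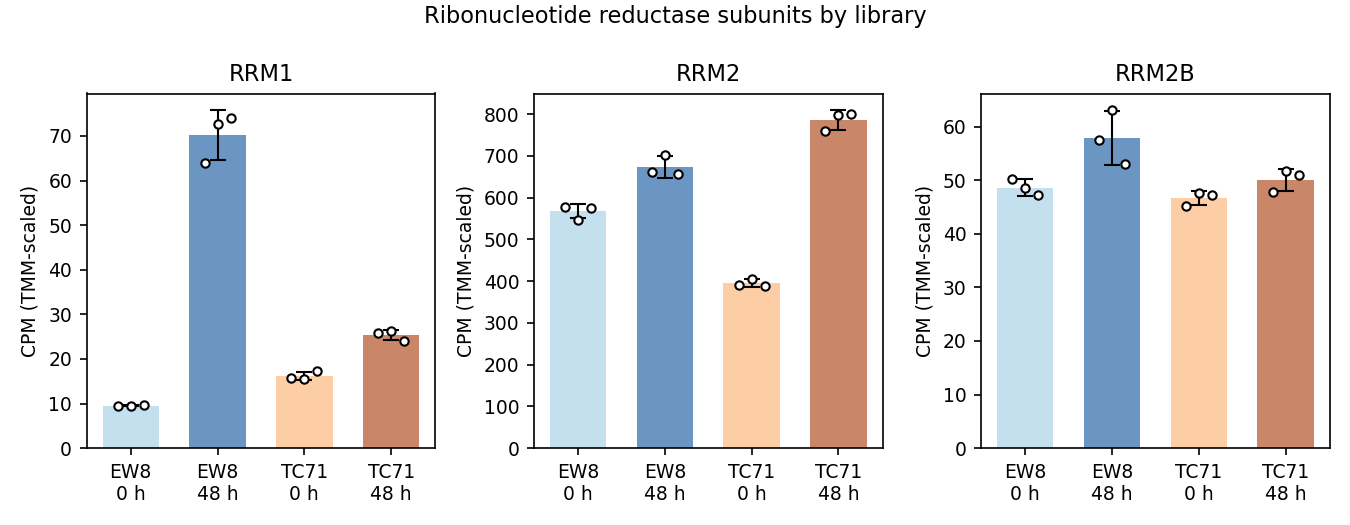
Expression of RRM1, RRM2 and RRM2B in CPM (TMM-scaled; vertical axes start at 0 and differ between panels) in the 4 groups named on the horizontal axes. Bars are means, error bars are SD (n = 3) and circles are single libraries. RRM1 was highest in EW8 48 h at 70.2 CPM, RRM2 was highest in TC71 48 h at 786 CPM, and RRM2B stayed between 45.2 and 63.0 CPM in all libraries.

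RRM2, the small subunit of dividing cells, had the highest count of the 3 genes in every library. Unlike RRM1, it differed more between times in TC71 than in EW8, with a 1.99-fold rise in TC71 and a 1.19-fold rise in EW8. In TC71, its counts were 10514, 8275 and 9369 in the 0 h libraries and 19896, 21375 and 25902 in the 48 h libraries, giving 392, 406 and 388 CPM against 759, 797 and 801 CPM. All TC71 48 h libraries were above all TC71 0 h libraries. The log2 fold change was 0.99 ± 0.04 (SE; edgeR adjusted p = 7.15e-21), just short of a 2-fold change, and 3.77% of genes exceeded it.

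In EW8, RRM2 counts were 13179, 9557 and 18876 at 0 h and 12420, 14027 and 13417 at 48 h, which correspond to 577, 547 and 576 CPM and to 660, 703 and 657 CPM. On the CPM scale the groups did not overlap, as for 71.1% of all genes. The log2 fold change of 0.25 ± 0.04 (edgeR adjusted p = 3.72e-07) was exceeded by 38.2% of genes, so that RRM2 passed the test in EW8 with a size that was common in that line. The RRM2 response was lower in EW8 than in TC71 by 0.74 ± 0.05 on the log2 scale (log2 difference -0.74, edgeR interaction adjusted p = 1.51e-13; 22.4% of genes were called lower in this comparison).

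Between the lines, RRM2 was lower in TC71 than in EW8 at 0 h (log2 difference -0.52 ± 0.04, edgeR adjusted p = 2.27e-14; 32.8% of genes were called lower in TC71) and slightly higher at 48 h (0.22 ± 0.04, edgeR adjusted p = 1.95e-06; 35.4% were called higher). This was the opposite of RRM1 at both times. RRM2 levels rose in the order TC71 0 h, EW8 0 h, EW8 48 h and TC71 48 h, and neighboring groups in that order did not overlap.

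RRM2B, the p53-responsive small subunit, had a narrow range in the 4 groups. In EW8, its counts were 1146, 847 and 1546 in the 0 h libraries and 1080, 1257 and 1084 in the 48 h libraries, giving 50.2, 48.5 and 47.2 CPM against 57.4, 63.0 and 53.1 CPM. The EW8 48 h libraries were above the EW8 0 h libraries without overlap, replicate 2 being the highest and replicate 3 the lowest of the group. The log2 fold change was 0.25 ± 0.06 (SE; edgeR adjusted p = 2.20e-04), and 38.0% of genes exceeded it.

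In TC71, RRM2B counts were 1214, 971 and 1143 in the 0 h libraries and 1252, 1384 and 1646 in the 48 h libraries, giving 45.2, 47.6 and 47.3 CPM against 47.8, 51.6 and 50.9 CPM. The groups just failed to overlap, but the difference did not pass the test (log2 fold change 0.10 ± 0.06, 95% interval -0.0072 to 0.21, edgeR adjusted p = 0.143). The difference between the responses of the lines was 0.15 ± 0.08 (95% interval -0.0084 to 0.31, edgeR adjusted p = 0.128) and did not pass either. It passed without replicate 3 of EW8 48 h, the lowest RRM2B library of that group (0.21, edgeR adjusted p = 0.0361), and with scaling by total counts, under which the TC71 difference passed as well.

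At 0 h, RRM2B did not differ detectably between lines (TC71 minus EW8, log2 difference -0.06, 95% interval -0.17 to 0.05, edgeR adjusted p = 0.387), and the libraries overlapped. The sign of this small value turned with the scaling. At 48 h, RRM2B was 1.15-fold lower in TC71 than in EW8 (log2 difference -0.21 ± 0.06, edgeR adjusted p = 0.00142), a call that was lost with upper-quartile scaling (-0.11, edgeR adjusted p = 0.0619). In the order of levels, EW8 0 h and TC71 48 h were neighbors whose libraries overlapped.

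Levels of different genes were compared as TPM, a share of all transcripts per length that was computed here from the counts and gene lengths. With all exons of a gene merged, RRM2 had 226 ± 6.13 TPM (SD, n = 3) in EW8 0 h, 306 ± 12.9 in EW8 48 h, 166 ± 5.70 in TC71 0 h and 355 ± 15.8 in TC71 48 h. These levels were above those of 95.5% to 98.2% of the genes with a length. RRM2B had 32.9 ± 1.17, 44.7 ± 4.08, 33.3 ± 0.883 and 38.4 ± 1.97 TPM in the same order, and RRM1 had 8.19 ± 0.0934, 69.0 ± 5.19, 14.7 ± 0.698 and 24.8 ± 0.677 TPM. Thus RRM1, as counted, had the lowest level per length in 3 of the 4 groups, whereas in EW8 48 h it was above RRM2B. Reads of the RRM1 transgene may be missing from this level, which was not tested. The percentage of genes with a lower TPM than RRM1 ran from 54.2% in EW8 0 h to 85.2% in EW8 48 h.

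The merged length of RRM2, 9153 bases, counts the exons of all its annotated transcripts, and its canonical transcript has 3258 bases. With canonical lengths, RRM2 came to 362, 504, 269 and 572 TPM, RRM2B to 21.2, 29.5, 21.7 and 24.9 TPM, and RRM1 to 6.30, 54.5, 11.4 and 19.2 TPM in the 4 groups. The order of the 3 genes within each group was the same by either length.

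The counts of the subunit genes were then examined as ratios within each library, in which library size and scaling cancel. The active enzyme joins RRM1 to one of the small subunits, and the ratios compare the counts of these genes at the level of RNA. Whether the RRM1 count holds reads of the transgene was not tested, so ratios with RRM1 do not give the supply of working subunits. There were 15 ratio comparisons. With 3 libraries against 3, a two-sided exact permutation test cannot give a p below 0.1, and over the 15 comparisons this value adjusts to 0.107.

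The ratio of RRM2 to RRM1 was lower at 48 h in EW8 and higher at 48 h in TC71. In EW8, it was 61.6, 57.6 and 59.5 at 0 h and 10.3, 9.68 and 8.86 at 48 h, a 6.20-fold lower ratio. In TC71, it was 24.9, 26.2 and 22.4 at 0 h and 29.5, 30.2 and 33.3 at 48 h, a 1.27-fold higher ratio. The groups did not overlap in either line, and both exact permutation p-values were 0.1, the smallest possible. Since the directions were opposite, the mean over both lines (log2 change -1.15, exact permutation p = 0.1, labels permuted within each line) describes neither. Per base of merged length, the mean ratio moved from 27.5 to 4.45 in EW8 and from 11.3 to 14.3 in TC71, and with canonical lengths from 57.4 to 9.29 and from 23.6 to 29.9. The lines therefore changed places, the RRM2 to RRM1 count ratio being 2.43-fold lower in TC71 than in EW8 at 0 h and 3.22-fold higher at 48 h.

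The ratio of RRM2B to RRM1 was lower at 48 h in both lines. In EW8, it was 5.36, 5.10 and 4.88 at 0 h and 0.899, 0.867 and 0.716 at 48 h, so that RRM2B counts exceeded RRM1 counts in each 0 h library and fell below them in each 48 h library. In TC71, it was 2.88, 3.07 and 2.73 at 0 h and 1.86, 1.96 and 2.12 at 48 h. The log2 changes were -2.63 and -0.55, with no overlap in either line. Over both lines the mean log2 change was -1.59 (exact permutation p = 0.005, the smallest this design can give, and 0.075 adjusted over the 15 comparisons).

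The ratio of the 2 small subunits overlapped between times in EW8 and did not in TC71. In EW8, RRM2B to RRM2 lay between 0.0819 and 0.0886 at 0 h and between 0.0808 and 0.0896 at 48 h, with overlapping libraries and a log2 change of -0.0012 (exact permutation p = 1). In TC71, it was between 0.115 and 0.122 at 0 h and between 0.0629 and 0.0647 at 48 h, a 1.86-fold lower ratio with no overlap (exact permutation p = 0.1). Over both lines the change was -0.45 (exact permutation p = 0.05), which did not pass the threshold. RRM2 transcripts exceeded RRM2B transcripts per base of merged length by 6.87-fold and 6.88-fold in EW8 and by 4.98-fold and 9.24-fold in TC71 at 0 h and 48 h. With canonical lengths, these values were 17.1-fold at both times in EW8 and 12.4-fold and 23.0-fold in TC71.

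**Figure D2:**
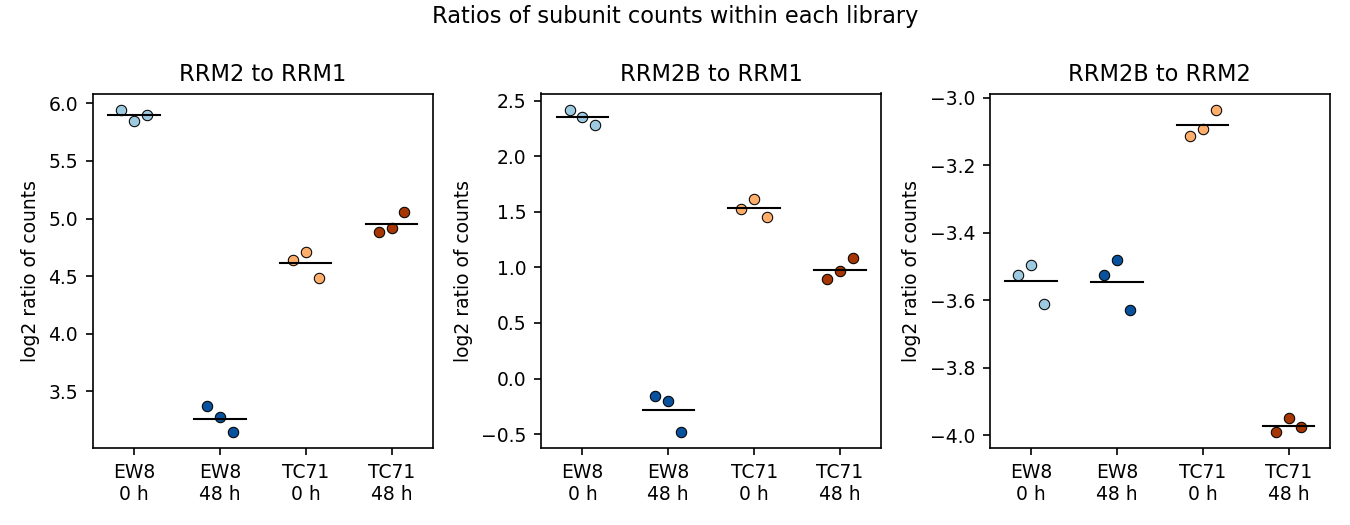
Log2 ratio of counts of RRM2 to RRM1, RRM2B to RRM1 and RRM2B to RRM2 (vertical axes) in the 4 groups named on the horizontal axes. Points are single libraries and lines are group means (n = 3). The RRM2 to RRM1 ratio moved by -2.63 in EW8 and by 0.34 in TC71, and the RRM2B to RRM2 ratio overlapped between times in EW8 alone.

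The genes next to each member along the chromosome were compared with it. STIM1, an endoplasmic reticulum calcium sensor that precedes RRM1, had a log2 fold change of 0.0028 in EW8 (edgeR adjusted p = 0.970) and 0.13 in TC71 (edgeR adjusted p = 0.0853). On the other side, TRIM21, an antibody receptor, had 0.12 in EW8 (edgeR adjusted p = 0.403). In TC71, where RRM1 had 0.65, the neighbors on that side rose with it, TRIM21 by 0.34, TRIM68 by 0.24 and TRIM5 by 0.32 (edgeR adjusted p = 0.0304, 0.0362 and 0.0154). Of the 7 neighbors of RRM1 that passed the filter, TRIM5 had the largest value in EW8, 0.75 ± 0.21 (edgeR adjusted p = 0.00209), far below the 2.88 of RRM1.

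RRM2 lies between KLF11 and HPCAL1. HPCAL1, a calcium-binding protein gene, rose by 0.19 ± 0.08 in EW8 (edgeR adjusted p = 0.0378) and had 0.13 in TC71 (edgeR adjusted p = 0.121). KLF11, a transcription factor of 16 to 131 counts, had log2 fold changes of -0.14 in EW8 (edgeR adjusted p = 0.625) and 0.47 in TC71 (edgeR adjusted p = 0.0154). ODC1, which makes polyamines, fell in both lines, by 0.60 and by 0.26 on the log2 scale (edgeR adjusted p = 3.20e-16 and 4.16e-07), against the direction of RRM2. Near RRM2B, ZNF706 fell by 0.32 in EW8 and fell by 0.12 in TC71 on the log2 scale (edgeR adjusted p = 2.42e-07 and 0.0332), whereas RRM2B rose in EW8.

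**Figure D3:**
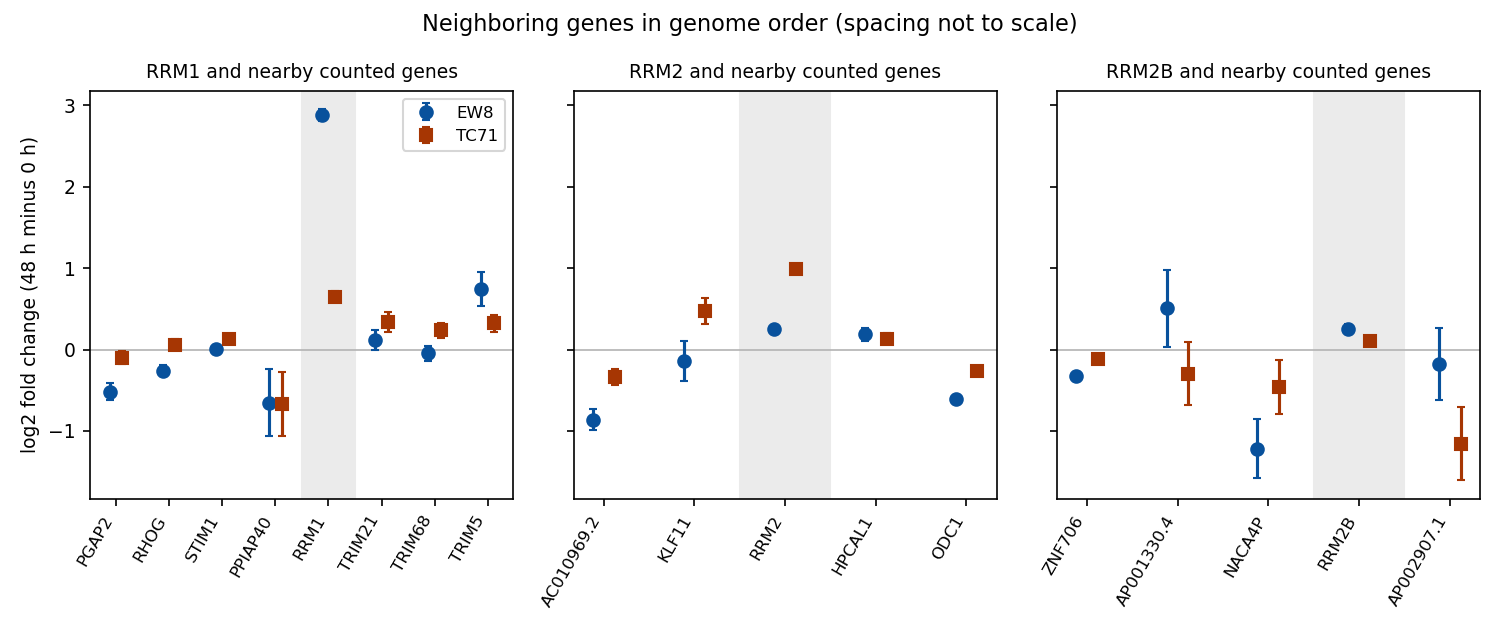
Log2 fold change between the libraries labelled 48 h and 0 h (vertical axis) for each member, shaded, and nearby genes that passed the filter on low counts, in genome order with spacing not to scale. Circles are EW8, squares are TC71 and error bars are SE. RRM1 in EW8, at 2.88, stands above its neighbors, the highest of which is TRIM5 at 0.75.

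The rest of the deoxyribonucleotide pathway did not follow the subunits as a block. The electron donors keep the enzyme reduced through thioredoxin and glutaredoxin. Of 7 such genes, 2 rose, 4 fell and 1 did not pass the test in EW8, and 3 rose, 2 fell and 2 did not pass in TC71. Their median log2 fold changes were -0.33 and 0.0019, where the medians of all genes were 0.03 and -0.0013. Of all genes, 37.0% were called higher and 31.6% lower in EW8, and 22.9% and 19.2% in TC71. Thioredoxin itself, TXN, fell by 0.96 ± 0.05 on the log2 scale in EW8 (177 to 90.8 CPM) and by 0.20 ± 0.05 in TC71 (144 to 125 CPM). Glutathione reductase, GSR, fell by 0.75 ± 0.04 in EW8. The glutaredoxins GLRX2 and GLRX rose in both lines, by 0.41 and 0.34 in EW8 and by 0.28 and 0.22 in TC71.

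Among 17 genes of deoxyribonucleotide synthesis and salvage, 3 rose, 10 fell and 4 did not pass in EW8, with a median of -0.21, and 8 rose, 4 fell and 5 did not pass in TC71, with a median of 0.08 (all genes: 37.0% higher and 31.6% lower in EW8, 22.9% and 19.2% in TC71). Thymidine kinase TK1, which like RRM2 is made for replication, rose in both lines, by 0.38 ± 0.06 in EW8 (206 to 268 CPM) and by 0.71 ± 0.06 in TC71 (203 to 331 CPM). In EW8, NME4, a mitochondrial nucleoside diphosphate kinase, fell by 0.69, and CMPK1, which phosphorylates UMP and CMP, fell by 0.59. Cytidine deaminase, CDA, rose from 5.42 to 10.3 CPM in TC71. CDA and NME2 were the genes of this group past a 2-fold change in EW8, both at levels below 3 CPM (log2 fold changes 1.54 and -1.67), and NME2 overlaps a readthrough transcript with NME1 that makes its counts uncertain.

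Of 7 genes that break down or cleanse nucleotides, 1 rose, 4 fell and 2 did not pass in EW8 (median -0.26), and 3 rose, 1 fell and 3 did not pass in TC71 (median 0.07). With 7 genes, these counts are read against the same shares of all genes, 37.0% higher and 31.6% lower in EW8 and 22.9% and 19.2% in TC71. DCTPP1, which hydrolyzes nucleotide triphosphates, fell by 0.55 in EW8. The deoxyribonucleotide hydrolase SAMHD1 rose in EW8 by 0.15 (40.8 to 45.4 CPM) and in TC71 by 0.25 (46.4 to 54.9 CPM).

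Of 11 known regulators of the enzyme, 6 rose, 4 fell and 1 did not pass in EW8 (median 0.14), and 3 rose, 2 fell and 6 did not pass in TC71 (median 0.05), the counts in TC71 being near the 22.9% of all genes called higher and 19.2% called lower. In EW8 these shares were 37.0% and 31.6%. CCNF, cyclin F, which directs the RRM2 protein to degradation, fell by 1.04 ± 0.06 in EW8 (79.1 to 38.4 CPM) and by 0.26 ± 0.05 in TC71 (84.4 to 70.6 CPM). The replication transcription factor E2F1 rose by 0.14 ± 0.04 in EW8 and by 0.48 ± 0.04 in TC71. The checkpoint kinase WEE1 fell in both lines, by 0.42 in EW8 and by 0.28 in TC71. The transcription factor FOXO3 rose by 1.18 ± 0.05 in EW8 and by 0.41 ± 0.05 in TC71. TP73 rose by 2.63 ± 0.19 in EW8 (0.701 to 4.36 CPM) and by 1.72 ± 0.11 in TC71 (3.78 to 12.4 CPM).

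RRM2 was read beside 20 genes linked to S phase, when RRM2 is made. Among them were replication licensing and replisome genes and the cyclin genes CCNE1, CCNE2 and CCNA2. In EW8, where 37.0% of all genes were called higher and 31.6% lower, 6 of the 20 rose and 14 fell (median -0.32). In TC71, where these shares were 22.9% and 19.2%, 16 rose, 0 fell and 4 did not pass (median 0.29). All 20 had a lower response in EW8 than in TC71 in the interaction test, where 22.4% of all genes were called lower. The sliding clamp PCNA fell in EW8 from 482 to 240 CPM (edgeR adjusted p = 4.51e-22), and the helicase subunit MCM6 fell by 0.94 ± 0.04. The licensing factors CDT1 and CDC6 rose in EW8 by 0.46 and 0.44. In TC71, cyclin E2, CCNE2, rose by 1.17 ± 0.06 and CDT1 by 1.02 ± 0.07. RRM2, at 0.25 in EW8 and 0.99 in TC71, was above the median of the list in both lines, and its difference between lines, -0.74, stood beside a median of -0.59 for the list. In bulk RNA, fewer cells in S phase and less RNA of these genes per cell cannot be told apart.

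RRM2B was read beside 19 tested p53 target genes. In EW8, 13 rose, 4 fell and 2 did not pass (median 0.32), and in TC71, 10 rose, 0 fell and 9 did not pass (median 0.29). Of all genes, 37.0% were called higher in EW8 and 22.9% in TC71. The cell-cycle inhibitor CDKN1A rose by 3.40 ± 0.08 in EW8 (11.0 to 115 CPM) and by 2.05 ± 0.07 in TC71 (17.8 to 73.6 CPM). The kinase PLK3 rose by 2.66 ± 0.10 and 1.29 ± 0.10. The apoptosis gene BAX fell by 0.44 and PHLDA3 by 0.64 in EW8. The genes past a 2-fold change, 5 in each line, were CDKN1A, PLK3, BBC3, FAS and GDF15 in both, where 13.9% of all genes in EW8 and 3.26% in TC71 were called higher with such a change. RRM2B, at 0.25 and 0.10, was below the median of the list in each line.

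**Figure D4:**
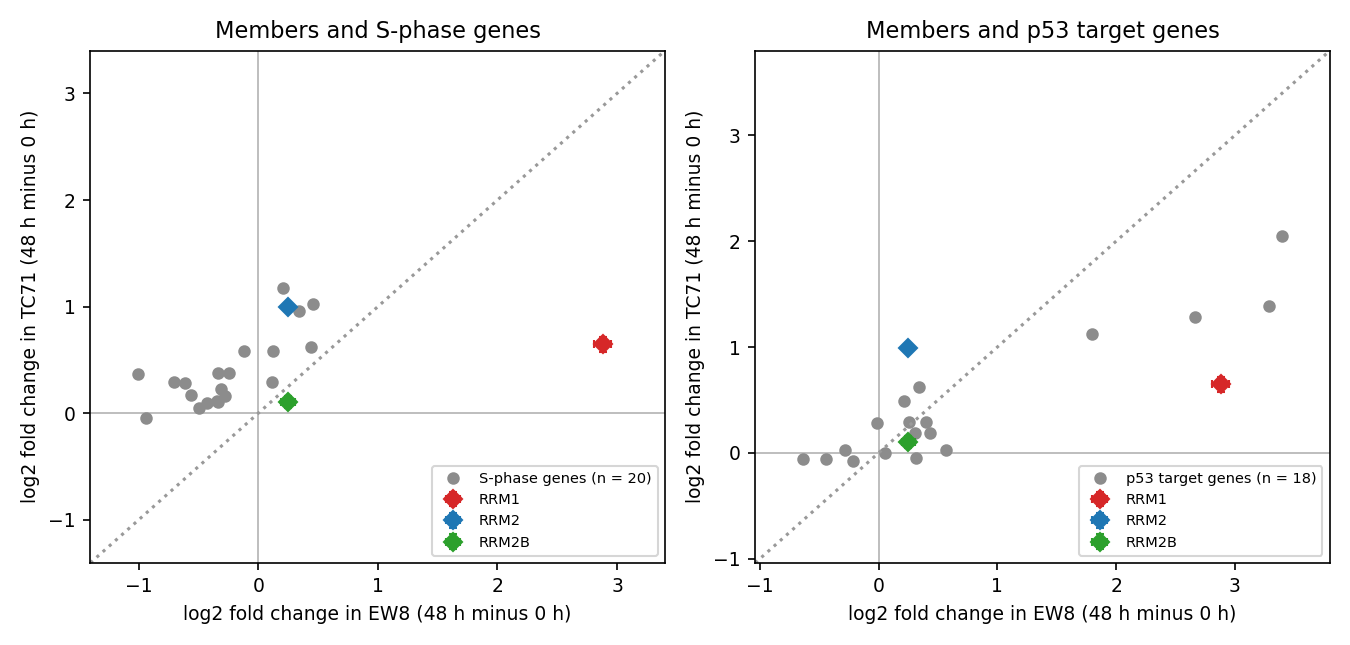
Log2 fold change between the libraries labelled 48 h and 0 h in EW8 (horizontal axis) and in TC71 (vertical axis). Diamonds with SE bars are the members, gray points are S-phase genes (left) and p53 target genes (right, without GDF15, which had 0 counts in EW8 0 h), and the dotted line marks equal responses. RRM2 (0.25, 0.99) lies above the line with the S-phase genes, and RRM1 (2.88, 0.65) lies far to the right.

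Finally, the genes whose profiles over the 12 libraries were closest to each member were found from the root mean square (RMS) difference of log2 CPM, each gene being centred on its own mean. The closest to RRM1 was PNRC1, a nuclear receptor coactivator, with an RMS difference of 0.106. It had 11.5, 87.0, 17.9 and 28.8 CPM in EW8 0 h, EW8 48 h, TC71 0 h and TC71 48 h, against 9.52, 70.2, 16.2 and 25.4 CPM for RRM1. The noncoding gene AF117829.1, MXD1, a MAX partner, CREM, a cAMP-responsive transcription factor, and CELSR3, a cadherin, followed at 0.158 to 0.214.

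For RRM2, the closest profile was that of FAM111B, a protease gene expressed in dividing cells, with an RMS difference of 0.0649. Its log2 fold changes were 0.18 in EW8 and 0.94 in TC71, near the 0.25 and 0.99 of RRM2. DONSON, a replication fork protein, ENSG00000196622, KANK2 and PKMYT1, an inhibitory kinase of CDK1, followed at 0.115 to 0.141. For RRM2B, whose profile was nearly flat, the 5 closest genes were MKRN1, ZBTB43, EPB41L5, SLAIN2 and RBMX2, at 0.0539 to 0.0655. These are descriptions of likeness in 12 libraries of 4 groups, and no test was attached to them.

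**Figure D5:**
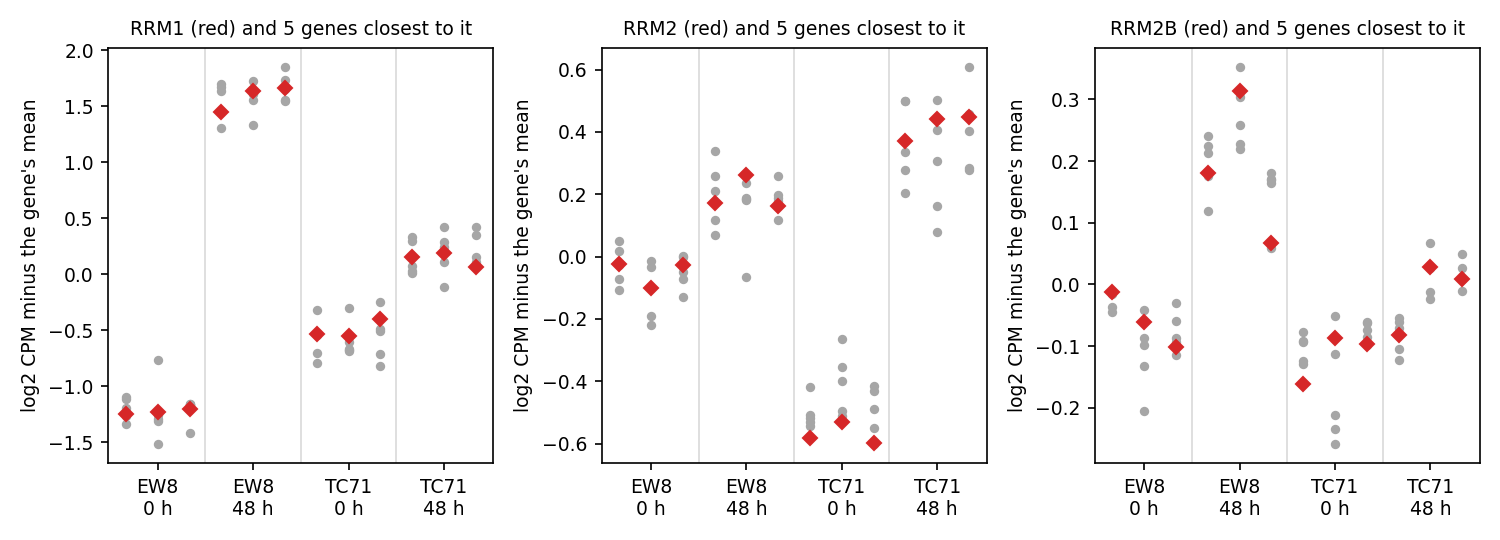
Log2 CPM minus the mean of each gene over the 12 libraries (vertical axes) by group (horizontal axes, 3 libraries each). Red diamonds are the member and gray circles are the 5 genes closest to it. The vertical scale differs between panels: group means of RRM1 ran from -1.23 to 1.59, and those of RRM2B from -0.11 to 0.19.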

How the data were processed

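RNA-seq of the RRM1-KO cells of both lines was analysed in 12 libraries, with groups from the labels (line and time, 3 libraries each). The deposited table holds raw counts per gene that the authors made from TruSeq Stranded mRNA libraries. The submitters' processing notes name FastQC, STAR and hg38, and the counting tool, annotation release and strand setting are not given in the sources used here. All sample columns were used (0 left out).

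Genes were filtered with filterByExpr (minimum count 10, minimum total 15), scaled with TMM and fitted in 1 model over the 4 groups with the quasi-likelihood F test of edgeR 4.0.16 (R 4.3.3). Calls used a Benjamini-Hochberg adjusted p below 0.05 over all 16515 genes. The smallest sum of any gene over the libraries in the table was 21, so the table was already without the lowest genes. DESeq2 1.42.0, other scalings, filters and thresholds, each line alone, a replicate block and leaving out each library were alternatives. Ratios of counts within a library were compared with two-sided exact permutation tests (scipy 1.17.1). TPM was computed here over the 19943 genes matched to GENCODE by gene ID. Promoters came from RefSeq (1 entry for RRM1, 2 for RRM2, none used for RRM2B).

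The members, gene lists and tests were chosen with earlier results of these data known. Named genes were the members, the genes with the 2 largest rises and 2 largest falls of each list in each line (mean of at least 20 counts in the lower group), the 5 most similar profiles per member (log2 of CPM + 0.5), neighbors and pseudogenes. BBC3, FAS and GDF15, and CDA and NME2 in EW8, were named after their values had been seen. The values of E2F1 and TP73 in EW8 and of FOXO3 and SAMHD1 in TC71 were also given after they had been seen. Some named genes are not reported here. The fitting script was tested on simulated data. Counts of replicates differed by more than counting noise in every group, so no library was a duplicate of another.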

Additional observations from a re-analysis of the deposited data

Results flagged for a closer look

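The responses of EW8 and TC71 (libraries labelled 48 h minus 0 h) differed in the edgeR interaction test for 2 of the 3 members and for 22 of the named genes, and these are set out here for that reason, each as the log2 response of EW8 minus that of TC71. RRM1 had a difference of 2.23 (adjusted p = 3.06e-18) and RRM2 one of -0.74 (adjusted p = 1.51e-13). The ratio of RRM2 to RRM1 was lower in every 48 h library of EW8 and higher in every 48 h library of TC71 than in the 0 h libraries of the same line, with log2 changes of -2.63 and 0.34, and this difference between the lines was not tested.

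Among genes of S phase, the difference was -1.38 for PCNA, -0.96 for CCNE2, -0.89 for MCM6, -0.56 for CDT1 and -0.18 for CDC6. Among electron donors, it was -0.76 for TXN, -0.65 for GSR and -0.36 for TXNRD1. Among genes of nucleotide synthesis, salvage and breakdown, it was -0.59 for both CMPK1 and NME4, -0.33 for TK1, -0.53 for NUDT1, -0.51 for DCTPP1 and 0.30 for DGUOK. Among regulators, it was 0.92 for TP73, 0.78 for FOXO3, -0.78 for CCNF and -0.34 for E2F1. Among p53 targets, it was 1.38 for PLK3, 1.35 for CDKN1A, -0.39 for BAX and -0.58 for PHLDA3. Of the p53 targets named for a change past 2-fold, BBC3 (1.89), FAS (0.67) and GDF15 also differed, and no value is given for GDF15, which had 0 counts in EW8 0 h. Of all genes tested, 48.1% had a difference that passed the same test.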

How the results depend on the processing

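RRM1 and RRM2 kept their direction and an adjusted p below 0.05 in all 5 contrasts under every other scaling, filter, test and left-out library. Requiring more than a 2-fold change removed the calls of RRM1 in TC71 (0.65) and between lines at 0 h (0.76), of RRM2 in EW8 (0.25), in TC71 (0.99), in the difference of responses (-0.74) and between lines at 0 h (-0.52) and 48 h (0.22), and of RRM2B in EW8 (0.25) and between lines at 48 h (-0.21). Scaling by total counts, which moved the median of all genes in EW8 from 0.031 to 0.156, gave RRM2B a call in TC71 (0.15, edgeR adjusted p = 0.0251) and in the difference of responses (0.22, adjusted p = 0.0195), and turned its difference between lines at 0 h to 0.076. Upper-quartile factors turned the latter to 0.02 and ended the RRM2B call between lines at 48 h (-0.11, adjusted p = 0.0619). Leaving out single libraries moved the RRM2B difference of responses between 0.081 and 0.21, with a call without EW8 48 h replicate 3 (0.21, adjusted p = 0.0361).

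With more than a 2-fold change, the genes called in EW8 and TC71 were 0 and 0 electron donors, 2 and 0 of synthesis and salvage, 0 and 0 of breakdown, 4 and 1 regulators, 1 and 2 of S phase, and 5 and 5 p53 targets. Called electron donors in TC71 numbered 3 at an adjusted p below 0.01 and 3 to 6 without single libraries, the 3 arising without replicate 3 of TC71 0 h or of TC71 48 h. The RRM2B to RRM2 ratio in EW8 ranged from -0.035 to 0.041 without single libraries, positive without EW8 0 h replicate 1 (0.0086), EW8 0 h replicate 2 (0.022) or EW8 48 h replicate 3 (0.041). Over both lines it ranged from -0.46 to -0.43, with exact permutation p from 0.03 to 0.08, below 0.05 without EW8 0 h replicate 3, EW8 48 h replicate 1 or EW8 48 h replicate 2.

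Same-numbered libraries did not deviate together (correlations -0.138 to -0.015). This shows no effect shared by a number, but it cannot tell whether the cultures were paired. With a replicate block, RRM1 had 2.88 in EW8 and 0.65 in TC71 and RRM2 0.25 and 0.99, and no member call changed within the lines or in the difference of responses, the contrasts to which the block applies. All 24 values per length moved by more than 1 SD with canonical lengths, the RRM2 to RRM1 ratio in EW8 0 h from 27.5 to 57.4. The depth gave RRM1 at least 166 counts in a library, and differences of RRM2B below about 0.1 on the log2 scale are within its error.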
